A study of Mus musculus with 6 samples.

Results

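The genes described here are the PARP family ADP-ribosyltransferases of mouse liver that act in antiviral defence or in DNA repair, followed by name in the deposited count table. The 10 members were taken by their gene symbols out of 40803 genes. The rule that selects them uses symbols and no measured value, but the members were chosen with earlier results of these data known. They fall into 7 interferon-induced members (Parp9, Parp10, Parp11, Parp12, Parp14, Zc3hav1 and the partner ligase Dtx3l) and 3 DNA repair members (Parp1, Parp2 and Parp3). All 10 passed the filter on low counts, as did 16327 genes in total.

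PARP enzymes use NAD+ to attach ADP-ribose to proteins and nucleic acids, either as single units or as chains. Parp1 and Parp2 bind broken DNA and build ADP-ribose chains that recruit repair factors, whereas many of the other family members add single units or have lost the activity. Several of the latter are transcribed in response to interferon and restrict viruses, and Zc3hav1, also called ZAP, has no transferase activity but binds viral RNA and directs its decay.

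Livers of 6 male C57BL/6J mice were profiled by RNA-seq, with 1 library per mouse. Each mouse had received a recombinant adeno-associated virus of serotype 8 through the tail vein, which carried either a scrambled short hairpin RNA (rAAV8-sh-scramble, n = 3) or a hairpin against the long non-coding RNA Hnf1aos1 (rAAV8-sh-Hnf1aos1, n = 3). In both vectors the hairpin was driven by the U6 promoter, which is not restricted to a cell type, and an EGFP reporter was carried as well, so that both groups were exposed to virus. The comparison asks how hepatic transcripts change when Hnf1aos1 is reduced. All mice of a group received the same hairpin sequence, so the reduction of Hnf1aos1 and any other effect of its hairpin cannot be told apart.

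The libraries held 14704746 to 19462398 gene counts, and the added spike-in RNAs took 1.38% to 1.52% of the counts in the scramble libraries and 1.18% to 1.24% in the knockdown libraries. Values below are counts scaled to a common library size (normalised counts), levels between genes are in TPM, and a gene was called when its Benjamini-Hochberg adjusted p from edgeR was below 0.05. Hnf1aos1 itself had normalised counts of 512, 491 and 620.3 in the scramble libraries and 278, 258 and 433 in the knockdown libraries. Every knockdown library was below every scramble library, with a log2 fold change of -0.74 (SE 0.195), although edgeR's adjusted p was 0.0625. Hepatocyte markers were present throughout, and 1 of 10 was called, the tyrosine aminotransferase Tat, which fell by 0.72 on the log2 scale (adjusted p = 0.00766, edgeR). Among the fits that left out 1 library, this call was lost only without scramble replicate 3. DESeq2 also called 2 of the markers higher. EdgeR called 1 higher without knockdown replicate 1 or without the filter on low counts, and 2 lower, Tat among them, without knockdown replicate 3.

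All 7 interferon-induced members were called higher in the knockdown livers, with a median log2 fold change of 0.99, and in each of them every knockdown library exceeded every scramble library. None of the 3 DNA repair members was called by edgeR, and their median was 0.16. Over all genes tested, 505 (3.09%) were called higher and 527 (3.23%) lower, 1032 (6.32%) in all, and the median over all tested genes was 0.00. The knockdown libraries all lay above the scramble libraries in 2487 genes, or 15.2% of those tested. An unadjusted p below 0.05 in edgeR was found for 3822 of the 16327 genes tested, which is the background for such counts below. Parp14, Parp11 and Parp12 were also above a log2 fold change of 1, which held together with a call for 128 genes (0.784%).

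The calls of the interferon-induced members depended on which livers were included, while their direction did not. Without scramble replicate 3, edgeR called 0 of the 7, with 8 of the 10 members at an unadjusted p below 0.05, and only 38 genes of the table were called higher. Without scramble replicate 2 there were 2 calls (Zc3hav1 and Dtx3l), and without knockdown replicate 2 there were 4. The log2 fold change of each of the 7 stayed above 0 whichever library was left out.

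**Figure D1:**
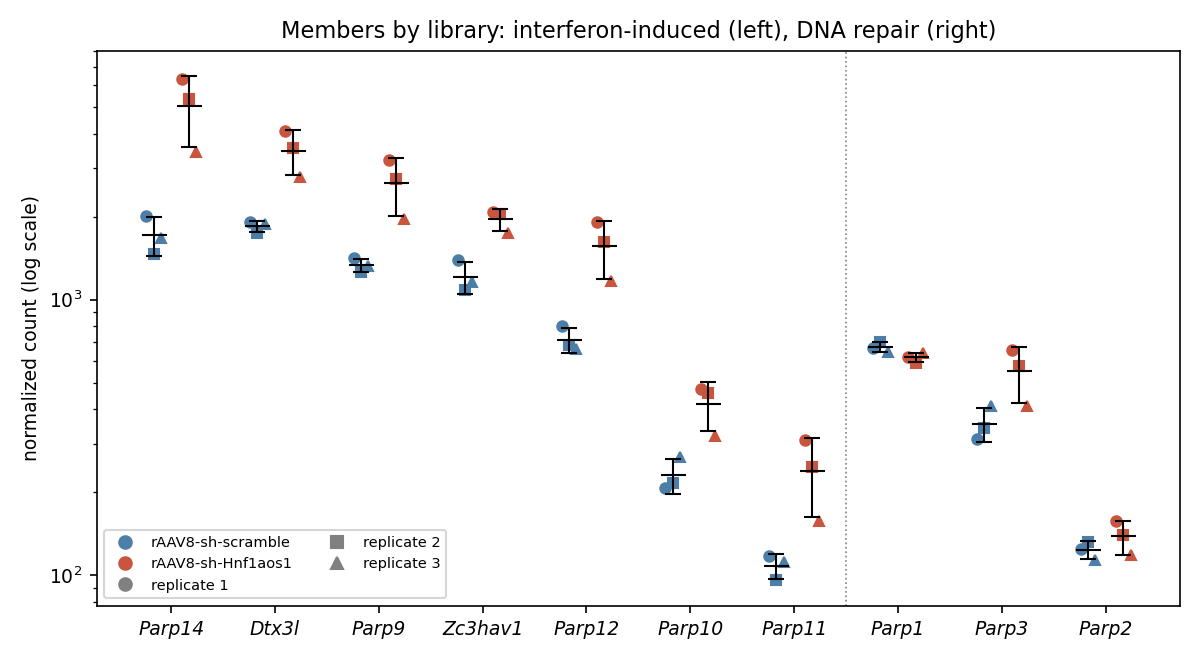
Normalised counts (log axis) of the 10 members in the 3 scramble and 3 knockdown libraries, with one symbol per replicate number, a long bar at each mean and short bars at 1 SD. In the 7 interferon-induced members all knockdown points lie above all scramble points and knockdown replicate 3 is the lowest knockdown point, whereas the groups of Parp2 overlap and those of Parp1 are turned the other way, by a log2 fold change of -0.12 that becomes 0.08 with spike-in library sizes.

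Parp14, a mono-ADP-ribosyltransferase with macrodomains that takes part in STAT6 signalling, changed the most among the members. Its normalised counts were 2009, 1466 and 1682 in the scramble livers and 6313, 5351 and 3453 in the knockdown livers. The lowest knockdown liver was therefore still above the highest scramble liver. The means were 1719 ± 273 (SD, n = 3) and 5039 ± 1456 (SD, n = 3), a 2.93-fold difference with a log2 fold change of 1.55 (SE 0.232, 95% interval 1.00 to 2.10, adjusted p = 0.0153, edgeR).

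Parp9 and Dtx3l encode proteins that form a complex, in which Dtx3l supplies the ubiquitin ligase and Parp9 the ADP-ribose binding macrodomains. Parp9 measured 1415, 1262 and 1321 normalised counts in the scramble livers and 3223, 2754 and 1971 in the knockdown livers. Dtx3l measured 1911, 1752 and 1886 against 4083, 3562 and 2791. In both genes the scramble livers were close together and the knockdown livers were spread, all of them above the controls. The log2 fold change was 0.99 for Parp9 (SE 0.160, adjusted p = 0.0111, edgeR). It was 0.91 for Dtx3l (SE 0.128, adjusted p = 0.0041, edgeR), and the 95% intervals of the pair, 0.63 to 1.35 and 0.63 to 1.19, covered nearly the same range.

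Parp12 and Zc3hav1 both carry CCCH zinc fingers that contact RNA. Parp12, which restricts the replication of several RNA viruses, had normalised counts of 800.3, 683 and 664 in the scramble livers and 1909, 1615 and 1169 in the knockdown livers. Zc3hav1 had 1391, 1081 and 1158 against 2074, 2045 and 1753. The scramble values of the zinc finger genes stayed below all knockdown values, and Zc3hav1 was the interferon-induced member with the most even knockdown livers. Parp12 rose by a log2 fold change of 1.13 (SE 0.17, adjusted p = 0.0106, edgeR), and Zc3hav1 by 0.69 (SE 0.112, adjusted p = 0.00799, edgeR), the smallest change of the 7.

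Parp10 and Parp11 are mono-ADP-ribosyltransferases of lower abundance. Parp10 had 206, 216 and 268 normalised counts in the scramble livers and 474, 459.9 and 321 in the knockdown livers. Parp11 had 117, 95.5 and 111 against 309, 247 and 158. Neither gene showed an overlap between the groups, and in both knockdown replicate 3 came nearest to the controls. The log2 fold changes were 0.86 for Parp10 (SE 0.163, 95% interval 0.50 to 1.22, adjusted p = 0.0158, edgeR) and 1.14 for Parp11 (SE 0.229, 95% interval 0.63 to 1.65, adjusted p = 0.0234, edgeR).

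The DNA repair members did not move as a group. Parp1, the main sensor of DNA strand breaks, had normalised counts of 666, 701 and 648 in the scramble livers and 618, 591 and 641 in the knockdown livers. All knockdown values were lower, but by little, with a log2 fold change of -0.12 (SE 0.0867, 95% interval -0.31 to 0.07, adjusted p = 0.423, edgeR). The sign of that value turned to 0.08 when library sizes were set from the spike-in RNAs, a scaling that moved the median of all genes up by 0.20, and relative to that shift it was again -0.12. Parp2, which shares the strand-break function, measured 124, 132 and 113 against 156, 139.7 and 118. Its groups overlapped, and its log2 fold change was 0.16 (SE 0.155, 95% interval -0.18 to 0.50, adjusted p = 0.562, edgeR).

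Parp3, which acts in the repair of double-strand breaks, gave a change between those of the other repair members and those of the antiviral members. Its normalised counts were 313, 341 and 410.2 in the scramble livers and 658, 576 and 411.2 in the knockdown livers. The lowest knockdown liver thus nearly coincided with the highest scramble liver, while the other knockdown livers were well above all controls. The log2 fold change was 0.63 (SE 0.173, 95% interval 0.24 to 1.02), with an unadjusted p of 0.0053 and an adjusted p of 0.0656 in edgeR. DESeq2 called it with an adjusted p of 0.0109 and limma voom did not call any of the 3. Without knockdown replicate 3 the log2 fold change was 0.80 and edgeR's adjusted p was 0.00139. The interval of Parp3 overlapped those of Zc3hav1 (0.45 to 0.94) and Parp10, and the difference between these genes was not tested.

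Across the knockdown livers the interferon-induced members shared an order. Replicate 1 was the highest knockdown liver in 7 of 7 interferon-induced members and replicate 3 the lowest in 7 of 7, and replicate 3 was also the lowest for Parp2 and Parp3. Parp1 differed, with replicate 3 as its highest knockdown liver and replicate 2 as its lowest. Of all genes tested, 3309 (20.3%) had replicate 1 as the highest and replicate 3 as the lowest knockdown liver. Knockdown replicate 3 was in addition the knockdown liver with the highest Hnf1aos1. With 3 livers this is a description only, and the part of the remaining Hnf1aos1 in the members' levels was not tested. The coefficient of variation of Parp14 was 28.9% over the knockdown livers and 15.9% over the scramble livers, and that of Parp9 was 23.9% against 5.77%. Dtx3l had 18.7% against 4.64%. Zc3hav1 was the exception among the interferon-induced members, with 9.06% against 13.3%, and Parp1 varied equally little in both groups (4.07% and 4.06%).

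To compare levels between genes, the deposited TPM values were used, which take transcript length into account. In the scramble livers Parp9 (50.1 ± 3.25 TPM) and Dtx3l (46.6 ± 3.07 TPM) were highest, and their ranges over the livers overlapped. Parp12 followed with 28.9 ± 2.69 TPM, below both. Parp14 (26.4 ± 4.24 TPM) and Parp1 (23.9 ± 0.498 TPM) came next, so that the main DNA repair enzyme and the antiviral Parp12 and Parp14 were within a narrow band of levels in control liver. Below them Zc3hav1 measured 19.9 ± 2.62 TPM and Parp3 14.1 ± 2.38 TPM. Parp10 (8.86 TPM), Parp2 (3.90 TPM) and Parp11 (2.47 TPM) were the lowest of the members, and the ranges of the last pair did not overlap. When the order was rebuilt from scaled counts per kilobase of annotated exon, 5 of the 10 members kept their place. In the scramble livers Dtx3l then stood at place 1 and Parp9 at place 2. Zc3hav1 moved from place 6 to 3, Parp12 from 3 to 5 and Parp1 from 5 to 6.

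In the knockdown livers the means were 94.8 ± 25.1 TPM for Parp9 and 83.3 ± 17.8 TPM for Dtx3l. Parp14 reached 73.7 ± 23.1 TPM and Parp12 60.1 ± 15.9 TPM, while Parp1 was at 20.9 ± 1.17 TPM. The antiviral enzymes that had been near the level of Parp1 were thus well above it. The TPM ratio of Parp12 to Parp1 was 1.36, 1.10 and 1.16 in the scramble livers and 3.50, 3.09 and 2.06 in the knockdown livers. The ratio of Parp3 to Parp1 was 0.521, 0.540 and 0.702 against 1.18, 1.08 and 0.711. The lowest knockdown liver was thus close to the highest scramble liver.

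Summed over the 7 interferon-induced members, the level was 195.7, 166.2 and 187.6 TPM in the scramble livers and 450.4, 368.2 and 270.1 TPM in the knockdown livers. The summed level of the 3 DNA repair members was 39.6, 41.8 and 44.3 TPM against 52.2, 44.7 and 40.0 TPM. The first sum separated the groups and the second did not. The ratio of the sums was 4.39 ± 0.498 (SD, n = 3) in the scramble livers and 7.87 ± 0.990 (SD, n = 3) in the knockdown livers.

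**Figure D2:**
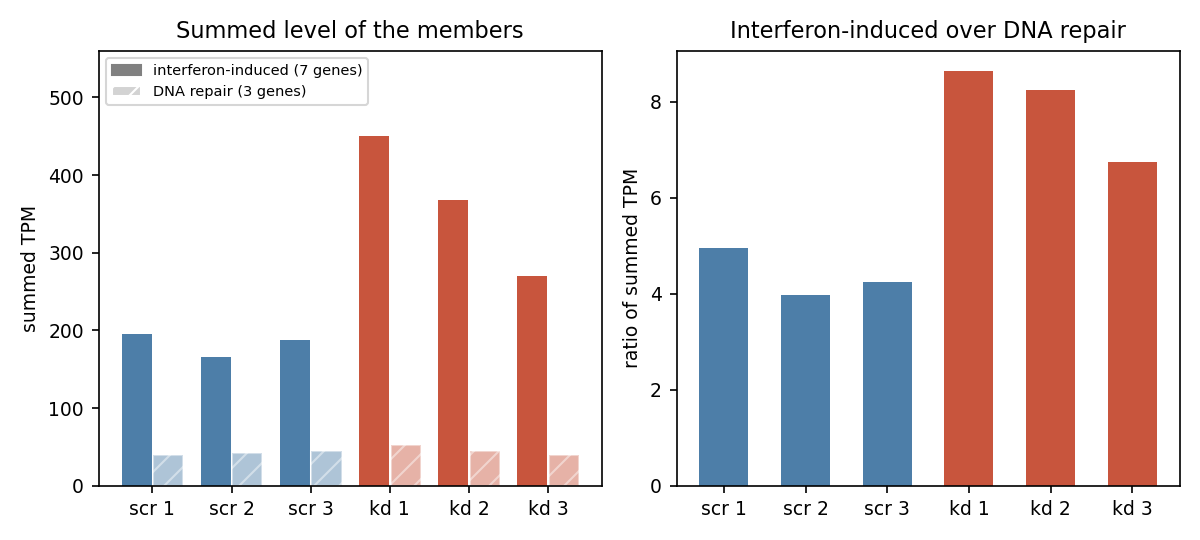
Left, summed TPM of the 7 interferon-induced members (solid bars) and of the 3 DNA repair members (hatched bars) in each scramble (scr) and knockdown (kd) library; right, the ratio of both sums in each library. The interferon-induced sum is 166.2 to 195.7 TPM in the scramble livers and 270.1 to 450.4 TPM in the knockdown livers, while the DNA repair sums overlap.

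Members were also compared by how alike their values ran over the 6 livers, as the root mean square difference of their centred log2 values. This describes likeness in 6 shared libraries and carries no test. Parp9 and Dtx3l were the closest of the 45 pairs, at 0.0729. Parp11 and Parp12 followed at 0.109 and Parp9 and Parp12 at 0.110, and the median over the pairs of interferon-induced members was 0.239. The farthest pair was Parp1 and Parp14, at 1.2. The nearest member to Parp3 was Parp10, at 0.174.

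The TPM ratio of Parp9 to Dtx3l was accordingly steady, with 1.11, 1.08 and 1.05 in the scramble livers and 1.18, 1.16 and 1.06 in the knockdown livers. The ratio of Parp14 to Parp9 was 0.580, 0.474 and 0.520 against 0.799, 0.793 and 0.715. This ratio was higher in every knockdown liver than in every scramble liver. Among genes outside the members, the nearest to Parp9 were G3bp2 (0.0443), Shisa5 (0.0805) and Pvt1 (0.0862), and those nearest to Parp14 were the interferon-inducible GTPase Irgm1 (0.0683), Snx10 (0.0861) and the interferon-inducible GTPase Iigp1 (0.0865). G3bp2 was also nearer to Dtx3l (0.0717) than Parp9 was. Within 0.25 there were 142 outside genes around Parp9 and 223 around Dtx3l, so such likeness was not particular to the pair.

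Parp9, Dtx3l and Parp14 are consecutive genes on chromosome 16 in the RefSeq gene order. The flanking genes were not called. Kpna1, an importin, had mean normalised counts of 1669 ± 155 in the scramble livers and 1795 ± 14.7 in the knockdown livers (log2 fold change 0.10, adjusted p = 0.526, edgeR). Hspbap1 had 98.4 ± 3.33 against 103 ± 27.0 (log2 fold change 0.06, adjusted p = 0.889, edgeR). The change was thus seen in the 3 members and was not detected in the genes next to them.

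Parp9 and Dtx3l lie on opposite strands and share 458 bases of annotated exons, or 9.40% of the exonic length of Parp9 and 8% of that of Dtx3l. The strand setting of the counting was not given in the sources used here. Reads from the shared stretch may therefore be missing from both genes or assigned to the wrong one, and its part in their likeness was not tested. Parp10 shares 205 exonic bases (4.80%) with Plec on the same strand, and Parp3 shares 20 with Rrp9 on the opposite strand. Rrp9, a nucleolar RNA-processing protein, went from 57.7 to 80.7 normalised counts (log2 fold change 0.48, adjusted p = 0.191, edgeR). Next to Parp1 and Parp2, Lin9 (log2 fold change 0.16, adjusted p = 0.65, edgeR) and Tep1 (log2 fold change -0.03, adjusted p = 0.855, edgeR) were not called.

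The upstream sequences are shown to let the interferon response motifs be seen, since the members were listed as interferon-induced or as DNA repair genes. RefSeq promoter windows of the build GRCm38.p6, from 250 bases before to 50 bases after a transcription start, were matched for 7 of the 10 members, and Parp11 had a window at each of its 2 starts. Parp9, Parp10 and Parp14 had no entry. The interferon-stimulated response element was searched as GAAA and GAAA with any 2 bases between, and the gamma-activated site as TTC and GAA with any 3 bases between, on both strands. The former occurs in 1131 of 32851 promoter windows (3.44%) and the latter in 2726 (8.3%). Among the members' windows both were present only in Parp11, where they overlap and begin 44 and 37 bases before the start. The 250 upstream bases follow, 5′ to 3′ on the strand of each gene, with the matched motifs in capitals.
Parp11, chr6:127446590-127446839, plus strand: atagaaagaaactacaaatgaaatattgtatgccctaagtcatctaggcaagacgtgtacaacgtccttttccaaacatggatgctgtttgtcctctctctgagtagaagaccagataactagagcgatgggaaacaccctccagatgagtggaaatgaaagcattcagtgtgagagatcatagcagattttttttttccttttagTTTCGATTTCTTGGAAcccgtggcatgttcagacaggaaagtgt
Zc3hav1, chr6:38354604-38354853, minus strand: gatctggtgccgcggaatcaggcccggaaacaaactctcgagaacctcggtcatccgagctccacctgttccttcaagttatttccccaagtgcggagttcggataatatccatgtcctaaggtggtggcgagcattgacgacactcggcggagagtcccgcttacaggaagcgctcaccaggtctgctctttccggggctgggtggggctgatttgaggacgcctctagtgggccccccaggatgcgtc
Parp3, chr9:106476950-106477199, minus strand: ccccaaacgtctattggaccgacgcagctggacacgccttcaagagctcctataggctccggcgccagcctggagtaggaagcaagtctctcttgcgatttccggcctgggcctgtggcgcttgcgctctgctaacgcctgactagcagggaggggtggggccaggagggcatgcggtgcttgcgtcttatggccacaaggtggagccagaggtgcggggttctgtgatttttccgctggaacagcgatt
Parp1, chr1:180568641-180568890, plus strand: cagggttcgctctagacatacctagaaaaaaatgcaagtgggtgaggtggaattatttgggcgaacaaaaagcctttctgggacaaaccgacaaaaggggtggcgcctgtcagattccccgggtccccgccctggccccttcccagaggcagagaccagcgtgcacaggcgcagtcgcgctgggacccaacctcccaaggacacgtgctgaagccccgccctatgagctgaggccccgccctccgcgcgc

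The absence of a match in the other windows says only that these letters do not occur there. Zc3hav1, Parp12 and Dtx3l were called higher without such a match, and Parp11 was called higher with it. The windows also differed in base composition. GC content was 42.0% in the Parp11 window with the motifs, 59.0% in its other window, 54.3% in Dtx3l, 58.0% in Zc3hav1 and 73.7% in Parp12, against a median of 52.7% over all windows. Those of Parp1, Parp2 and Parp3 had 62.0%, 60.0% and 57.7%.

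Of the 7 further PARP family genes, 1 was called higher and none lower, with a median log2 fold change of 0.06. The called gene was Parp16, a transferase of the endoplasmic reticulum membrane that acts in the unfolded protein response. Its normalised counts rose from 324 ± 37.3 to 471 ± 48.8 (log2 fold change 0.54, SE 0.119, adjusted p = 0.0262, edgeR). The call was lost when scramble replicate 2 or 3 or knockdown replicate 1 or 2 was left out. Parp6 had the lowest value, -0.35 (adjusted p = 0.0797, edgeR). The tankyrases Tnks and Tnks2, which modify Axin and telomere proteins, had log2 fold changes of 0.06 and 0.17, and Tiparp, a target of the aryl hydrocarbon receptor, had 0.13. Parp4 (0.01) and Parp8 (-0.22) were also not called.

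**Figure D3:**
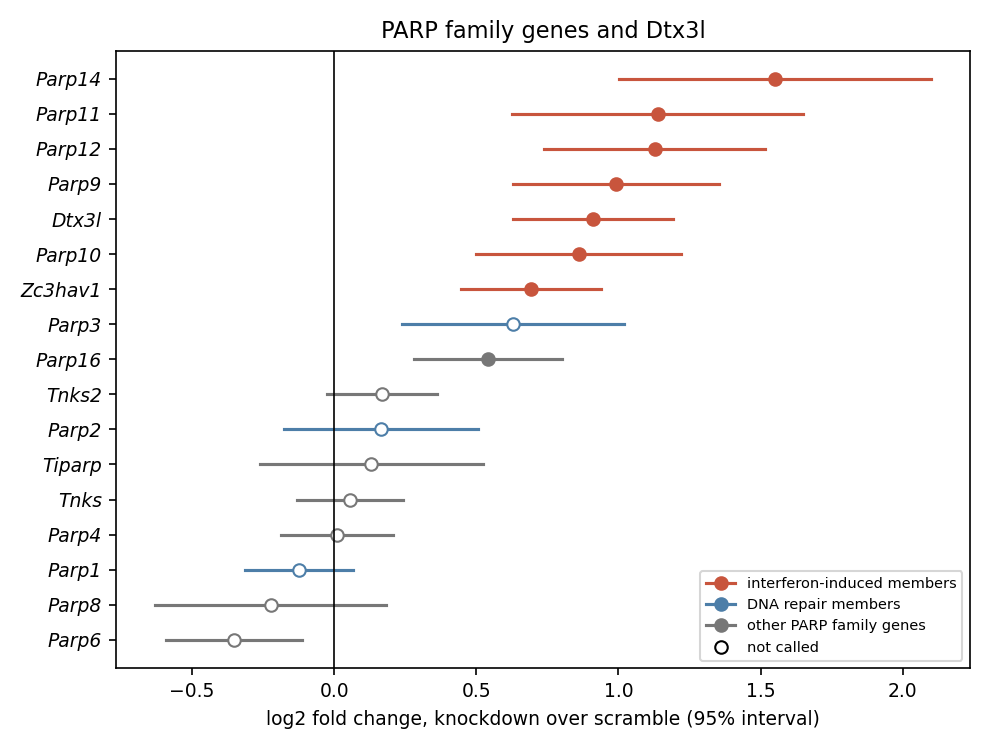
Log2 fold changes, knockdown over scramble, of the 10 members (the partner ligase Dtx3l among them) and of the 7 further PARP family genes. Lines are 95% intervals from edgeR, with filled points for called genes and open points for genes not called. The 7 interferon-induced members lie between 0.69 and 1.55, Parp3 and Parp16 follow at 0.63 and 0.54, and the other genes lie between -0.35 and 0.17.

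Genes that act with the interferon-induced members were then examined. Of 14 genes of the ISGF3 complex, its receptors and interferon regulatory factors, 3 were called higher and none lower, with a median of 0.19. DESeq2 called 5 of them higher and limma voom 4. In 7 of the 14 every knockdown library was above every scramble library, against 15.2% of all genes tested. An unadjusted p below 0.05 in edgeR was found for 7 of the 14. Among the 3 called in the main edgeR fit was Irf9, the DNA-binding subunit of ISGF3. It rose from 694 ± 97.7 to 1026 ± 109 normalised counts, by a log2 fold change of 0.56 (adjusted p = 0.0217, edgeR). The interferon gamma receptor chain Ifngr2 rose by 0.87 (adjusted p = 0.0233, edgeR). Irf7 had the largest change of the list, from 464 ± 165 to 1433 ± 414 normalised counts (log2 fold change 1.62, adjusted p = 0.0696, edgeR). It missed the threshold in the main edgeR fit, whereas DESeq2 and limma voom called it higher. Of 14 partners of ZAP in RNA decay, 2 were called higher and the median was 0.14. These were the ubiquitin ligase Trim25, a cofactor of ZAP (log2 fold change 0.52, adjusted p = 0.0217, edgeR), and the decapping enzyme Dcp2 (0.51, adjusted p = 0.0166, edgeR). Without scramble replicate 3, and likewise without knockdown replicate 2, edgeR called none of either list, and without knockdown replicate 3 it called 5 and 3.

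The enzymes that remove ADP-ribose and those that handle its donor NAD+ showed few calls. Of the 10 hydrolases and erasers listed, 9 were tested, and the main edgeR fit, DESeq2 and limma voom called none. The list had 2 at an unadjusted p below 0.05 and a median of 0.04. The smallest p belonged to Macrod1, a mitochondrial hydrolase (log2 fold change -0.30, adjusted p = 0.192, edgeR). Of 19 genes of NAD synthesis and salvage, 17 were tested and 1 was called higher, the kynurenine hydroxylase Kmo, which rose from 4586 ± 358 to 6031 ± 551 normalised counts (log2 fold change 0.40, adjusted p = 0.0471, edgeR). EdgeR called none of this list without scramble replicate 2 or 3 or knockdown replicate 1 or 2. Without scramble replicate 1 it called Nampt in place of Kmo, and without knockdown replicate 3 it called 3 higher and 1 lower. Kmo was also not called by limma voom. In edgeR its call was lost with DESeq2 size factors, a minimum mean of 50 counts or the robust estimation turned off. It was lost as well with library totals, where 1 other gene was called lower, and with a replicate block, where Nampt was called higher. Nampt, the rate-limiting enzyme of NAD salvage, had a log2 fold change of 0.38 and an adjusted p of 0.0698 in edgeR. Among 10 tested other NAD consumers the main edgeR fit called none, nor did DESeq2 or limma voom, and 1 had an unadjusted p below 0.05. The smallest p was that of Cd38 (log2 fold change 0.35, adjusted p = 0.0711, edgeR).

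Among genes that work beside the DNA repair members, the main edgeR fit made no call. Over all genes, 3822 of the 16327 tested had an unadjusted p below 0.05 in that fit. Of 20 genes of base excision and single-strand break repair, edgeR, DESeq2 and limma voom called none, with 3 at an unadjusted p below 0.05 and a median of 0.11. The smallest p was that of the endonuclease Apex1 (log2 fold change 0.34, adjusted p = 0.129, edgeR), and without knockdown replicate 3 edgeR called 2 genes higher, Apex1 and Ung. Of 22 tested genes of the p53 and DNA damage response edgeR and limma voom called none and DESeq2 called 1 higher, with 7 at an unadjusted p below 0.05 and a median of 0.15. Zmat3, a p53 target, had the smallest p (log2 fold change 0.38, adjusted p = 0.0744, edgeR). The list spanned -1.40 to 2.79, and its extremes were the stress-inducible Gadd45b and Gadd45g. Gadd45g, the gene that DESeq2 called, had normalised counts of 44.1, 40.6 and 29.7 in the scramble livers and 85.8, 261 and 448 in the knockdown livers (adjusted p = 0.102, edgeR). Gadd45a (log2 fold change 0.92) and Gadd45b (-1.40) also separated the groups without a call in the main edgeR fit. EdgeR called 2 of this list higher without knockdown replicate 1 (Gadd45a and Gadd45g) and 1 without knockdown replicate 3 (Zmat3). Without the filter on low counts it called 2 higher (Gadd45a and Zmat3) and 2 lower, Gadd45b among them. With the robust estimation turned off it called 1 higher, Gadd45g. In 14 proliferation genes none of the 3 tools made a call, 3 had an unadjusted p below 0.05 and the median was 0.05, with Mki67 at -0.53 (adjusted p = 0.105, edgeR). In those 3 every knockdown library was below every scramble library, as in 2232 of the 16327 genes tested. Without knockdown replicate 3 edgeR called 1 of the proliferation genes higher, Mcm2, and without the filter on low counts it called 1 lower, Mki67.

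**Figure D4:**
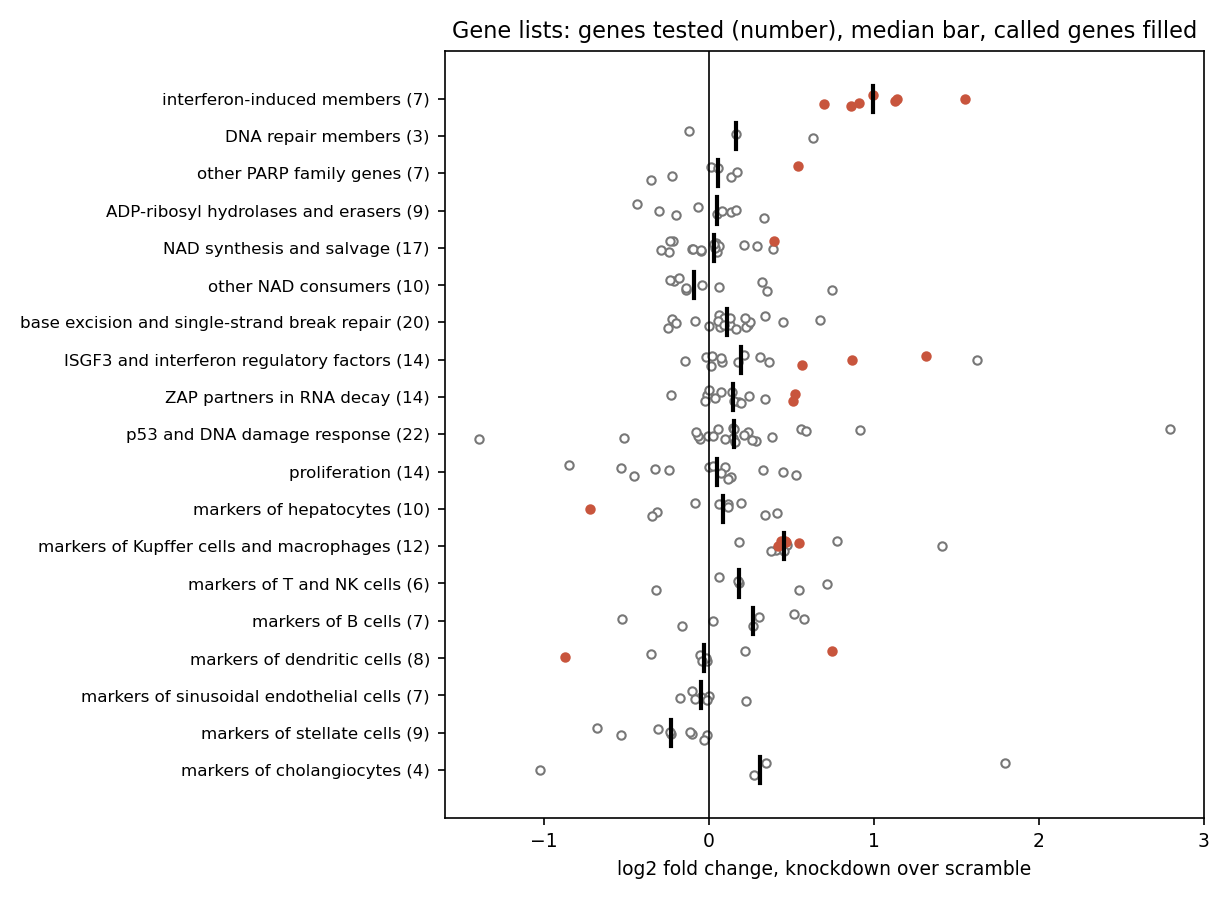
Log2 fold changes, knockdown over scramble, of the tested genes of each list (number in brackets), with filled points for called genes, open points for genes not called and a bar at each median. The interferon-induced members have a median of 0.99 with 7 of 7 filled, and the next highest median is 0.46, in the markers of Kupffer cells and macrophages, with 5 of 12 filled.

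Since whole liver was measured, a change in the number of cells of a type and a change in RNA per cell cannot be told apart. The levels of other cell types are therefore given beside the members. Of 12 markers of Kupffer cells and macrophages, 5 were called higher (Lyz2, C1qa, Clec4f, C1qb and Adgre1), all 12 had positive log2 fold changes and the median was 0.46. The summed normalised count of these markers was 4436 to 5271 in the scramble livers and 5679 to 7204 in the knockdown livers, with no overlap and none of them at 0. C1qa, a complement component of macrophages, rose by a log2 fold change of 0.55 (adjusted p = 0.0277, edgeR). The widest differences of the list, in Marco (1.41, adjusted p = 0.0797, edgeR) and Cd5l (0.78, adjusted p = 0.0586, edgeR), did not pass edgeR's threshold, although in both every knockdown library was above every scramble library. Without scramble replicate 2 or 3 or knockdown replicate 2, edgeR called none of the 12, without knockdown replicate 1 it called 1, and without knockdown replicate 3 it called 9. The part of these cells in the members' levels was not tested.

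None of the 8 neutrophil markers passed the filter on low counts, with sums of 4.39 to 12.3 normalised counts in the scramble livers and 19.0 to 44.7 in the knockdown livers, and the defining marker Ly6g was at 0. S100a8 had means of 1.44 and 6.92 normalised counts in the scramble and knockdown livers and S100a9 had 1.05 and 8.48, with no overlap between the groups, and without the filter edgeR called S100a9 higher. The main edgeR fit, DESeq2 and limma voom called no marker of T and NK cells (6 of 13 tested) or of B cells (7 tested). Of these, 1 and 0 had an unadjusted p below 0.05, and the sums of both lists overlapped between the groups. The dendritic cell list had 1 gene called higher, Bst2, which is itself an interferon-induced antiviral gene (log2 fold change 0.75, adjusted p = 0.00424, edgeR), and 1 called lower, Ccr9 (-0.88, adjusted p = 0.0369, edgeR). Ccr9 was no longer called when any library other than knockdown replicate 3 was left out. The sum of the list was 1254 to 1461 in the scramble livers and 1836 to 1923 in the knockdown livers. That rise came from Bst2, with means of 881 ± 122 and 1481 ± 76.4, whereas 6 of the 8 genes had negative log2 fold changes. The list's median log2 fold change was -0.03.

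Markers of the other resident cells of the liver made no calls with the main edgeR fit, DESeq2 or limma voom. The median was -0.05 over 7 tested sinusoidal endothelial markers, with 0 at an unadjusted p below 0.05, and -0.23 over 9 stellate cell markers, with 1. The 4 tested cholangiocyte markers had a median of 0.31, with 0 at an unadjusted p below 0.05, and their listed sum was 583 to 697 in the scramble livers and 837 to 2546 in the knockdown livers. Most of that range came from Spp1, whose log2 fold change was 1.79 (adjusted p = 0.274, edgeR). EdgeR called Spp1 higher without knockdown replicate 1 and the stellate cell marker Des lower without scramble replicate 1.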

How the data were processed

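Total RNA of 6 mouse livers was sequenced. According to the methods, a poly(A)-selecting stranded kit was used, whereas rRNA-depleted libraries are stated by the labels. The authors trimmed the reads with Trimmomatic, aligned them with STAR to GRCm38 and counted unique exonic reads per gene with featureCounts, and the labels give GRCm39. The strand setting and annotation release were not given in the sources used here, so the only coordinates printed are those of the RefSeq promoter windows. The deposited raw counts were tested, and the TPM values deposited by the authors were used for levels. The authors' normalised counts and their table of log2 fold changes and p-values were not used.

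The 92 spike-in rows were left out. Genes kept by filterByExpr were fitted with edgeR 4.0.16 (R 4.3.3), with TMM scaling and robust quasi-likelihood tests, two-sided, with Benjamini-Hochberg adjustment over 16327 genes. DESeq2 1.42.0 and limma 3.58.1 (voom) served as alternatives. SE is the log2 fold change divided by the square root of F. The common biological coefficient of variation was 13.9%. Exact permutation of 3 against 3 livers cannot go below p = 0.1. Likeness was computed from centred log2 CPM with a prior count of 2. Motif, exon overlap (GENCODE, GRCm38) and base composition were read from the reference tables, in which 37492 of the 40803 symbols (91.9%) were found by RefSeq name. Named genes were all members, Hnf1aos1, up to 5 called genes with the smallest p in each list or otherwise the gene with the smallest p, the nearest genes by likeness to Parp9 and Parp14 and the neighbours on the chromosome. Irf7, Nampt, Ly6g, Marco, Cd5l, S100a8, S100a9, Ung, Mcm2, the Gadd45 genes and the other family genes were named after their values were seen. Members and lists were chosen with earlier results of these data known. The values of 1 listed gene are not reported here.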

Additional observations from a re-analysis of the deposited data

How the results depend on the processing

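The direction of the 7 interferon-induced members was the same under every alternative. Their number called was 7 with DESeq2, limma voom, other size factors, library totals, spike-in library sizes, a minimum mean of 50 counts and a fit without robust estimation, 6 without a filter on low counts (Parp14, adjusted p = 0.0543, the highest over its alternatives), and 0 to 7 when 1 library was left out. The number of DNA repair members called was 1, Parp3, with DESeq2 (adjusted p = 0.0109), with spike-in library sizes (0.00932) and without a filter (0.00126), with a highest adjusted p of 0.16 among the alternatives, and 0 to 1 when 1 library was left out. The median of the DNA repair members was 0.36 with spike-in library sizes. The genes called in the whole table were 3394 with spike-in library sizes (3030 higher and 364 lower) and 1902 without a filter, and 103 to 1881 when 1 library was left out. Library totals gave 319 higher and 729 lower. The order of levels per exon length kept 5 of 10 places. The cause of these changes was not tested. Libraries with the same replicate number did not deviate together (correlations of -0.0226, 0.0231 and 0.0032), and a replicate block called 6 of the 7 interferon-induced members (Parp10, adjusted p = 0.0544) and 429 genes higher and 449 lower. With spike-in library sizes edgeR called 4 genes of base excision repair, 5 of the p53 list, 1 of proliferation and 3 hepatocyte markers higher. That scaling also called 12 macrophage markers, 4 genes of NAD synthesis, 7 of the ISGF3 list and 6 ZAP partners higher. It called 1 gene higher in each of the erasers, other NAD consumers, T and NK cell markers and sinusoidal endothelial markers. Without a filter edgeR called 9 macrophage markers, 2 genes of NAD synthesis and 1 of base excision repair higher. The replicate block ended the call of Ccr9. The low counts of the T cell and neutrophil markers limited what could be tested there, and each group held 3 livers.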
